A study of Rattus norvegicus with 31 samples.

Results

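Scd (gene ID 246074, also called Scd1) encodes stearoyl-CoA desaturase, and its transcript was followed here in liver and in 2 fat depots of the same rats, white fat (WAT, white adipose tissue) and brown fat (BAT). The gene was chosen by its annotation, as every probe set annotated to Scd or Scd1, with its differences between diets already known, so its own values are given as a description with no test. It is 1 of 14217 genes named on the array and has 1 of the 31042 probe sets used, 1370355_at. On the GRCr8 assembly it lies on chromosome 1 from 253218968 to 253232101, in a cluster with Scd2 (253118377 to 253131436), Scd3 (253028053 to 253063662) and Scd4 (253152519 to 253165216). Scd2 has 4 probe sets, and Scd3 and Scd4 have 0, so their transcripts were not analysed here.

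Stearoyl-CoA desaturase sits in the membrane of the endoplasmic reticulum and puts a double bond into saturated fatty acyl-CoA, turning stearoyl-CoA into oleoyl-CoA and palmitoyl-CoA into palmitoleoyl-CoA. It takes its electrons from cytochrome b5 and a cytochrome b5 reductase. Its products are preferred substrates for triglyceride, cholesteryl ester and phospholipid synthesis. Transcription of the gene is known to be driven by SREBP-1c, ChREBP and LXR, under insulin and dietary carbohydrate, and to be repressed by polyunsaturated fatty acids.

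Male Wistar rats, 3 weeks old at the start, were first given chow for a week. They were then put on diets with a carbohydrate to fat ratio (in energy percent) of 65:15 (L), 60:20 (M) or 35:45 (H). All groups ate these freely for a week. For the next 9 weeks the M and H rats received the energy that the L rats, fed freely, had taken. Diets were withdrawn 17 h before dissection. Livers came from 5 L rats (1 to 5), 4 M rats (6, 8, 9 and 10) and 4 H rats (12, 13, 15 and 16), and WAT and BAT from the same L and H rats, which makes 31 arrays of 1 rat each. All groups were of 1 strain and sex with no genetic change, the site of the WAT was not given in the sources used here, and diets that differ in fat also differ in carbohydrate. According to the paper, soybean oil was varied while lard stayed the same, so the fatty acid profile of the diets differed as well. The parts of fat amount, fatty acid profile and carbohydrate cannot be told apart.

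Each tissue had been normalized alone and by its own method, so a log2 value is set only against values of the same tissue. Of the 31042 probe sets, 25797 (83.1%) hold a single value on all 9 WAT arrays and 10381 (33.4%) on all 9 BAT arrays, against 0 in liver. The tissues bore their labels: the 7 hepatocyte markers averaged 13.44 to 13.56 on the log2 scale in liver, Ucp1, the uncoupling protein of brown fat, lay between 14.44 and 14.89 in BAT and was one value on all arrays in WAT, and Adipoq, the adipocyte hormone adiponectin, was at 13.06 or above in every WAT and BAT sample. Alb, albumin, of the hepatocyte list also averaged 13.17 in L and 13.10 in H rats in BAT. In WAT it alone of this list varied, at 8.05 to 11.25 in L and 7.83 to 12.71 in H rats. As the samples are pieces of whole tissue, fewer cells of a type and less RNA per cell cannot be told apart.

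In every tissue all H rats had less Scd transcript than all L rats. The mean difference, H minus L on the log2 scale, was -5.05 ± 0.74 (SE from limma) in WAT, -2.71 ± 0.61 in liver and -1.55 ± 0.26 in BAT, or 33.0-fold, 6.55-fold and 2.92-fold lower levels in the H-group. On the M diet, measured only in liver and close to the L diet in composition, Scd stayed near the L level.

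In liver the L rats 1 to 5 had log2 values of 11.63, 10.63, 11.07, 11.80 and 10.92, a mean of 11.21 ± 0.49 (SD, n = 5). The M rats 6, 8, 9 and 10 had 9.54, 11.29, 11.22 and 11.73, a mean of 10.94 ± 0.96 (n = 4). The H rats 12, 13, 15 and 16 had 10.43, 8.23, 6.57 and 8.75, a mean of 8.50 ± 1.59 (n = 4). The ranges of L and M overlapped, with M rat 6 alone below every L rat, and the H range came within 0.20 of the L range through rat 12.

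The order of the group means was L, M, H, and the step from L to M (-0.26 ± 0.61) was smaller than its SE while that from M to H (-2.45 ± 0.65) was not. These steps are unequal in diet, with fat at 15, 20 and 45 energy percent in L, M and H. Their sizes thus cannot tell a gradual from an abrupt change. The sign of the step from L to M rests on M rat 6: M minus L was 0.20 without that rat, and 0.18 by medians. With or without that rat, the M mean lay near the L mean. Of 31042 probe sets, none had a more negative H minus L or H minus M difference in liver than Scd, while 377 had a more negative M minus L difference. The next most negative H minus L difference among named genes was that of Onecut1, a hepatocyte transcription factor, at -2.18 ± 0.47. The H rats also differed among themselves more than the L rats did, with a 14.5-fold distance from the lowest to the highest H rat against 2.25-fold among the L rats.

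**Figure D1:**
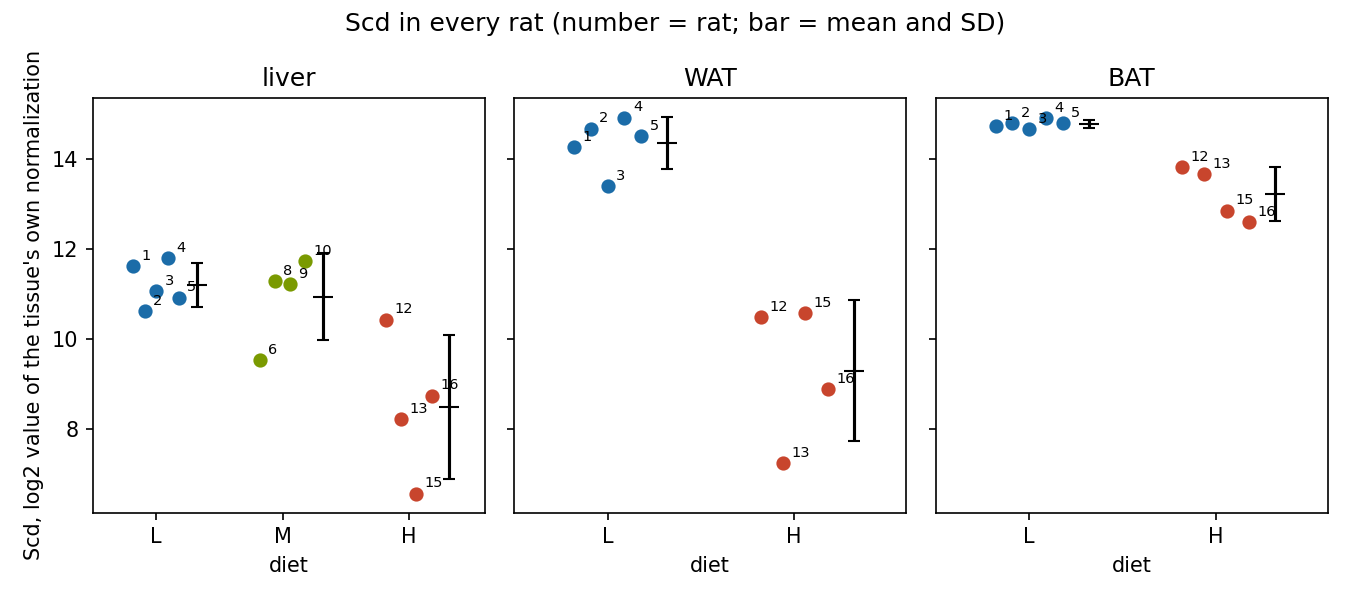
Scd on the log2 scale (vertical axis, each tissue in its own normalization) in every rat, by diet (horizontal axis) in liver, WAT and BAT; numbers are rats, and bars give the mean and SD. All 4 H rats lie below all 5 L rats in each tissue, by the least in liver, where H rat 12 is at 10.43 and L rat 2 at 10.63.

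In WAT the L rats 1 to 5 had Scd log2 values of 14.27, 14.67, 13.40, 14.91 and 14.51, a mean of 14.35 ± 0.58 (SD, n = 5). The H rats 12, 13, 15 and 16 had 10.50, 7.25, 10.58 and 8.90, a mean of 9.31 ± 1.57 (n = 4). The groups lay 2.83 apart at their nearest, and the H rats again were spread more widely, 9.997-fold against 2.85-fold from lowest to highest. The probe set of Scd was the brightest of the whole array in 4 of 5 L rats and 23rd in L rat 3, whereas in the H rats it ranked between 1074 and 14716. Brightness can saturate at the top of the scale, and the part of saturation in the WAT values of the L rats and in the size of the WAT difference was not tested. Its difference stood far from the rest: the second most negative of all, a probe set of Fasn (fatty acid synthase, 1367707_at), was at -1.78 ± 0.42.

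In BAT the L rats 1 to 5 had 14.72, 14.80, 14.66, 14.90 and 14.80, a mean of 14.78 ± 0.09 (SD, n = 5). The H rats 12, 13, 15 and 16 had 13.81, 13.66, 12.85 and 12.59, a mean of 13.23 ± 0.60 (n = 4). Neither range reached the other, with a gap of 0.84. By brightness the probe set ranked between 7 and 12 on the L arrays and between 57 and 209 on the H arrays, which orders probe sets and not amounts of transcript. The part of saturation in the small L spread and in the size of the BAT difference was not tested. In BAT 11 probe sets had a more negative difference than Scd, the nearest being that of Pnpla3, a lipid droplet acylhydrolase, at -1.55 ± 0.42.

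Between tissues, the H minus L difference of WAT exceeded that of BAT by 3.50 ± 0.80 log2 units and that of liver by 2.33 ± 1.05, and the difference in liver exceeded that in BAT by 1.17 ± 0.79 (SE; no test, and the 3 normalizations scale low and high values differently). The last of these was of the size of its error.

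Scd2, the neighbouring paralog, is read here from 1367668_a_at, since its other 3 probe sets hold 1 value each in WAT and BAT and average at most 3.39 in liver. In liver its log2 mean was 5.20 ± 0.39 (SD, n = 5) in L, 5.22 ± 0.65 (n = 4) in M and 5.20 ± 0.24 (n = 4) in H, so that the diets could not be told apart. In WAT the means were 7.55 ± 0.44 in L and 7.62 ± 0.53 in H, with overlapping ranges. In BAT they were 5.16 ± 0.47 in L and 4.61 ± 0.27 in H, a difference of -0.55 ± 0.26 with overlapping ranges and an adjusted p of 0.97 by limma. The H minus L difference of Scd2 in liver and WAT, at 0.01 ± 0.26 and 0.07 ± 0.32, thus lacked the size of that of Scd, and the 2 genes are distinct in the files although older annotation called Scd2 by the name Scd.

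To place Scd in its pathway, 128 genes of 7 lists were compared between diets. With limma and Benjamini-Hochberg adjustment over all probe sets, 0 of the 128 genes passed an adjusted p of 0.05 in any of the 5 comparisons. The shares of all probe sets that passed were 0.0354% for H against L in liver, 0.00644% for M against L, 0.0129% for H against M, 0.0548% in WAT (16 of the 17 probe sets called there hold a single value to within rounding) and 0% in BAT. At an unadjusted p of 0.05, limma picked 2809, 1252, 1827, 1813 and 1387 probe sets in the same order, but of the 1813 in WAT only 398 are among the 5245 probe sets that vary there. The rank products method, which the study used at a false discovery rate of 0.05, called more, and its counts for the lists are given below as "called by rank products". Its background was 0.757% of probe sets lower and 0.664% higher for H against L in liver, 0.261% and 0.142% for M against L, 0.345% and 0.422% for H against M, 1.07% and 0.728% in WAT, and 1.33% and 0.686% in BAT. A probe set with a single value cannot be called, and of those that vary 6.35% were called lower and 4.31% higher in WAT (5245 probe sets), and 2.004% and 1.03% in BAT (20661). The list counts below are over genes that vary and are to be read against these shares. Of the 128 genes, all 128 vary in liver, 61 in WAT and 121 in BAT. Among them, for H against L, rank products called 6 lower and 12 higher in liver and 17 lower and 0 higher in WAT. In BAT it called 28 lower and 4 higher. For H against L in liver, ranges did not overlap for 1.46% of varying probe sets with H lower and 1.60% with H higher. These shares were 1.07% and 1.62% in WAT, and 1.08% and 1.26% in BAT. For M against L in liver they were 0.525% and 0.493%, and for H against M 1.42% and 1.52%. A lack of overlap in a single gene is to be read against them. Simulated data for H against L in liver held 31042 probe sets. Rank products found 56 of 68, 65 of 66 and 66 of 66 of those changed by 0.5, 1 and 2 log2 units. It also made 159 false calls, a larger share of its calls than the false discovery rate of 0.05. Limma made 13 false calls on its own simulated liver data. Single calls by rank products and the list counts built on them thus need care.

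Of the genes of fatty acid synthesis and its supply of carbon and NADPH, the step before Scd, rank products called 8 of 10 lower in WAT of the H rats, 7 of 13 in BAT and 0 of 14 in liver, and limma called 0 in each. The difference between the tissues was not tested. In WAT 9 of the 10 genes that varied had a negative difference, with a median of -0.33 against 0.02 over all varying probe sets. In BAT it was 12 of 13, with a median of -0.45 against 0.00. In liver 5 of 14 were negative, with a median of 0.04 against 0.00, and rank products called 1 higher (Thrsp, a lipogenic nuclear protein, 0.51 ± 0.37).

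Acaca, acetyl-CoA carboxylase 1, which commits acetyl-CoA to fatty acid synthesis, had WAT log2 values of 11.05, 11.24, 10.73, 11.74 and 10.65 in L rats 1 to 5 and 10.18, 9.28, 10.33 and 9.41 in H rats 12, 13, 15 and 16. In BAT it had 13.09, 13.13, 13.06, 13.10 and 13.11 in the L rats and 12.90, 12.60, 12.36 and 12.04 in the H rats. In neither tissue did H and L overlap, with differences of -1.28 ± 0.32 (limma adjusted p = 0.62) and -0.62 ± 0.16 (adjusted p = 0.65). In liver its difference was -0.23 ± 0.09 (adjusted p = 0.49) with overlapping ranges.

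Fasn, whose product palmitate is the precursor of the desaturase's substrates, stood at 11.81, 12.39, 11.85, 12.33 and 12.18 in WAT of the L rats against 11.55, 10.30, 10.95 and 11.07 in the H rats. The 2 groups did not overlap, and the difference was -1.15 ± 0.26 (limma adjusted p = 0.62). In BAT it was -0.45 ± 0.17 (adjusted p = 0.97) with rat 12 inside the L range, and in liver 0.16 ± 0.09 (adjusted p = 0.63). These values are from the brighter probe set, 1367708_a_at. The other one, 1367707_at, had the same signs and larger sizes, at -1.78 ± 0.42 in WAT, -0.77 ± 0.17 in BAT and 0.34 ± 0.13 in liver (limma adjusted p = 0.62, 0.56 and 0.48).

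Me1, malic enzyme, which makes NADPH, was at 13.005, 13.30, 13.06, 13.22 and 13.24 in BAT of the L rats and at 12.50, 11.90, 11.65 and 11.08 in the H rats. That is a gap with no overlap and a difference of -1.38 ± 0.26 (limma adjusted p = 0.46). In WAT its difference was -0.76 ± 0.26 (adjusted p = 0.69), and there rat 12 at 9.97 reached into the L range. Acss2, which makes acetyl-CoA from acetate, was lower in BAT by -0.73 ± 0.12 (adjusted p = 0.40), and Slc25a1, the mitochondrial citrate carrier, had -0.36 ± 0.10 in WAT and -0.998 ± 0.25 in BAT (adjusted p = 0.62 and 0.65). Elovl6, which lengthens palmitate to stearate, had -0.41 ± 0.15 in liver, -0.76 ± 0.21 in WAT and -0.97 ± 0.32 in BAT (adjusted p = 0.45, 0.62 and 0.90). In WAT, where its groups did not overlap, and in BAT rank products called it lower.

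**Figure D2:**
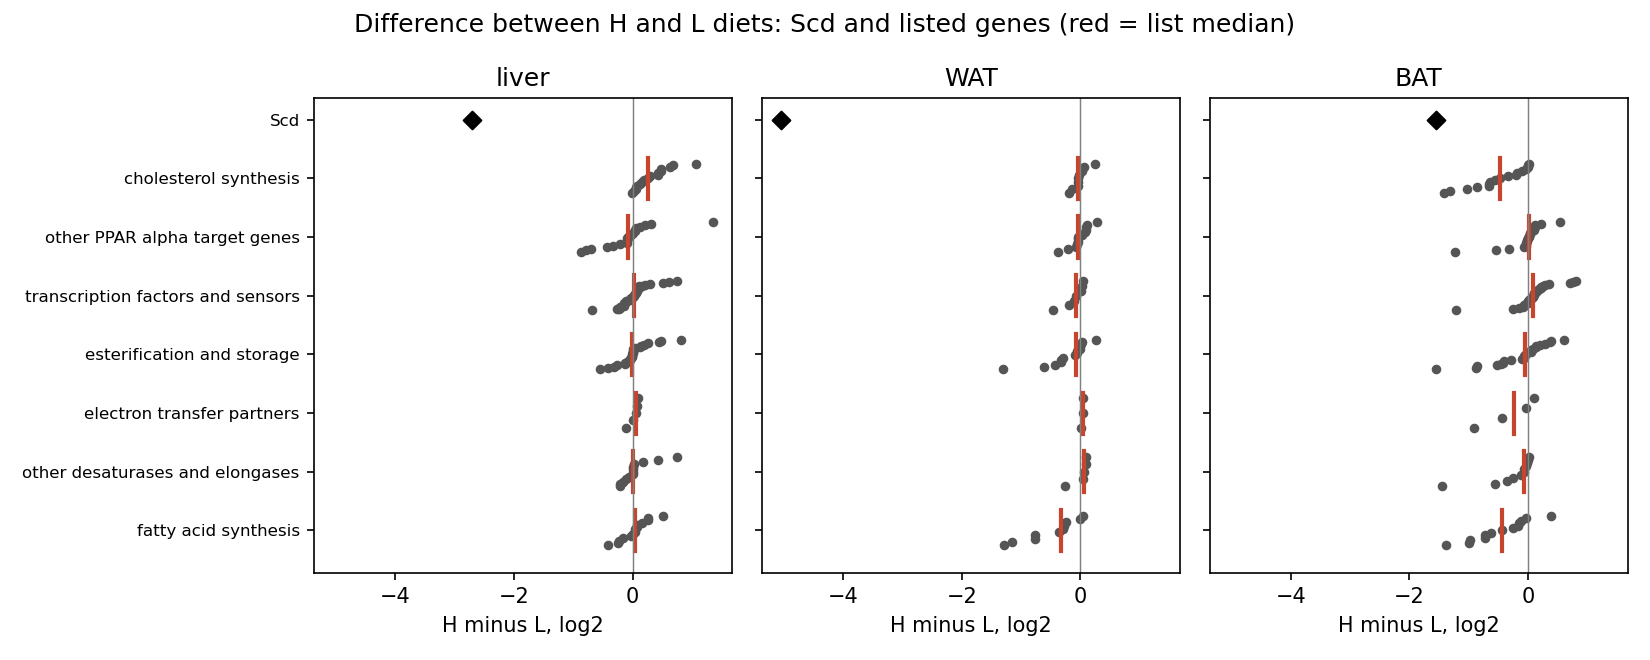
H minus L difference on the log2 scale (horizontal axis) of Scd (diamond) and of each listed gene that varied (points, stacked by list on the vertical axis) in liver, WAT and BAT; red bars are list medians. The fatty acid synthesis list lies left of 0 in WAT (median -0.33) and BAT (-0.45) but not in liver (0.04), and the cholesterol synthesis list lies right of 0 in liver (0.26) and left of it in BAT (-0.47).

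Among the other desaturases and elongases, rank products called 1 of 13 higher in liver, 1 of the 5 that varied lower in WAT and 2 of 11 lower in BAT. Fads1, the delta-5 desaturase of polyunsaturated fatty acids, had liver values of 9.94, 9.12, 10.64, 9.95 and 9.87 in the L rats and 10.65, 10.93, 10.75 and 10.26 in the H rats. In liver the H rats were thus on the high side, with L rat 3 within their range, and the difference was 0.74 ± 0.24 (limma adjusted p = 0.39, called higher by rank products). In BAT all H rats (6.17, 5.40, 5.44 and 5.41) lay below all L rats (7.65, 6.87, 7.01, 7.12 and 6.60), with a difference of -1.44 ± 0.25 (adjusted p = 0.40, called lower). The difference between the tissues was not tested. Fads2, the delta-6 desaturase, had 0.43 ± 0.21 in liver. The list as a whole had 5 of 13 negative differences in liver, 1 of 5 in WAT and 10 of 11 in BAT, with medians of 0.01, 0.07 and -0.07.

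Of the electron transfer partners, Cyb5r3, a cytochrome b5 reductase, was lower in BAT of every H rat by -0.90 ± 0.18 (limma adjusted p = 0.52), and Cyb5b, the outer mitochondrial membrane form of cytochrome b5, by -0.44 ± 0.15 (adjusted p = 0.96). Rank products called both lower. In WAT the difference of Cyb5r3 was 0.05 ± 0.07. In liver Cyb5a, the form in the endoplasmic reticulum, had -0.11 ± 0.05 without overlap of H and L (adjusted p = 0.57, not called by rank products).

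Among genes that esterify and store monounsaturated fatty acids, rank products called 1 lower and 2 higher of 25 in liver, 6 lower of 14 that varied in WAT, and 5 lower and 1 higher of 24 in BAT. Pnpla3 had the most negative difference of this list in both adipose tissues. Its log2 values were 8.99, 9.61, 9.60, 9.56 and 9.26 in WAT of the L rats and 8.71, 8.01, 7.69 and 8.02 in the H rats. The groups did not overlap there or in BAT, and the differences were -1.30 ± 0.23 and -1.55 ± 0.42 (limma adjusted p = 0.44 and 0.70). Lpcat3, which puts unsaturated acyl chains into phospholipids, had -0.30 ± 0.06 in WAT and -0.41 ± 0.10 in BAT (adjusted p = 0.61 and 0.62), again with no overlap. In liver Lpin2, a phosphatidate phosphatase, was higher in every H rat by 0.82 ± 0.34 (adjusted p = 0.50), and Acsl3, an acyl-CoA synthetase, had 0.44 ± 0.10 (adjusted p = 0.18).

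Srebf1, which encodes SREBP-1, the best known activator of Scd, lay on the opposite side of it in liver. Its log2 values were 7.33, 6.97, 7.34, 7.26 and 7.66 in L rats 1 to 5, 7.29, 7.94, 7.93 and 7.55 in the M rats and 8.29, 7.71, 8.34 and 7.92 in the H rats. All H rats were above all L rats, with a difference of 0.75 ± 0.17 (limma adjusted p = 0.19, called higher by rank products). In WAT its difference was -0.08 ± 0.14, smaller than its error. In BAT it stood at 11.16, 10.93, 10.65, 10.93 and 10.83 in the L rats and at 10.64, 11.36, 11.26 and 11.22 in the H rats. There 3 of 4 H rats were above every L rat and rat 12 was below them all, and the difference was 0.22 ± 0.17 (adjusted p = 0.97, not called). Ppargc1b, a coactivator of SREBP-1, had 0.52 ± 0.19 in liver and 0.75 ± 0.11 in BAT (adjusted p = 0.45 and 0.40), and rank products called it higher in both.

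Insig1, which holds SREBPs in the endoplasmic reticulum and is itself one of their target genes, was at 11.49, 12.48, 11.69, 12.13 and 11.95 in BAT of the L rats and at 11.27, 10.64, 10.61 and 10.43 in the H rats. No H rat reached the L range, and the difference was -1.21 ± 0.25 (limma adjusted p = 0.53). In WAT it was -0.46 ± 0.16 (adjusted p = 0.69) with overlap, and both were called lower by rank products. Lepr, the leptin receptor, had -0.69 ± 0.18 in liver (adjusted p = 0.30, called lower). Over the 33 regulators in liver the median difference was 0.02, and rank products called 1 lower and 3 higher.

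PPAR alpha, the fatty acid sensor of liver, is also known to act on Scd. Of its other target genes, rank products called 4 of 21 lower in liver of the H rats: Angptl4, an inhibitor of lipoprotein lipase (-0.87 ± 0.30, limma adjusted p = 0.43), Pdk4, a pyruvate dehydrogenase kinase (-0.78 ± 0.35, adjusted p = 0.54), Ehhadh, an enzyme of peroxisomal beta-oxidation (-0.70 ± 0.28, adjusted p = 0.48) and Cyp4a1, a fatty acid omega-hydroxylase (-0.44 ± 0.18, adjusted p = 0.49). Acot1, an acyl-CoA thioesterase, was called higher, at 1.36 ± 0.95. Over this list 13 of 21 differences were negative (median -0.08). For M against L in liver 16 of 21 were negative (median -0.08), with 3 called lower and 1 higher. For H against M 9 of 21 were negative (median 0.01), with 1 called in each direction. The part of PPAR alpha in the Scd differences was not tested. Ehhadh was called lower also in WAT (-0.38 ± 0.15, adjusted p = 0.81) and BAT (-1.23 ± 0.58, adjusted p = 0.97).

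Cholesterol synthesis, which shares the SREBP system with Scd, differed from Scd in liver. There 16 of 17 genes had a positive H minus L difference (median 0.26, against 0.00 over all), and rank products called 4 higher, among them Sqle, squalene epoxidase (1.06 ± 0.23, limma adjusted p = 0.17), and Acat2, cytosolic acetoacetyl-CoA thiolase (0.48 ± 0.11, adjusted p = 0.19). In BAT 15 of 17 were negative (median -0.47), and 9 were called lower, led by Cyp51, lanosterol demethylase (-1.03 ± 0.11, adjusted p = 0.29), Pmvk, phosphomevalonate kinase (-0.56 ± 0.09, adjusted p = 0.40), and Fdft1, squalene synthase (-1.32 ± 0.24, adjusted p = 0.40). In WAT the median was -0.03 and 0 of the 9 genes that varied were called.

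For the M diet in liver, rank products called 1 of the 128 genes higher and 4 lower against L, and 9 higher and 2 lower for H against M. The lower calls against L held 3 of the 21 other PPAR alpha target genes. The higher calls for H against M held 5 of 17 cholesterol genes, with Sqle at 1.28 ± 0.24 and Acat2 at 0.61 ± 0.11 (limma adjusted p = 0.21 for both). Pparg, the adipogenic receptor PPAR gamma, had 0.35 ± 0.11 for M against L and -0.47 ± 0.11 for H against M (adjusted p = 1 and 0.47), with no overlap in either comparison and no call by rank products.

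Markers of other cells differed between some rats or diets in both adipose tissues, and limma called 0 of them. In BAT Acta1, skeletal muscle actin, was at 2.29 in all L rats and in H rats 12 and 16, and at 7.55 and 9.13 in H rats 13 and 15. Over the muscle list (8 of 9 markers that varied) the mean level ran from 3.68 to 3.72 in the L rats and from 3.70 to 7.16 in the H rats, and rank products called 6 of the 8 higher. Scd in BAT was 13.66 and 12.85 in rats 13 and 15 and 13.81 and 12.59 in the other H rats, and the H minus L difference without rats 13 and 15 was -1.57. Without them the fatty acid synthesis list had 11 of 13 negative differences in BAT (median -0.52, 6 called lower by rank products) and the cholesterol list 15 of 17 (median -0.48, 8 called lower). The mean of the adipocyte list in BAT ran from 12.10 to 12.21 in L and from 11.96 to 12.13 in H, with 4 of 7 markers lower in H (median difference -0.02) and 1 called lower (Lep, leptin, -0.80 ± 0.28). All 6 fibroblast markers were lower in BAT of the H rats (median -0.40), and rank products called 3 of them lower, Col1a1 and Col1a2 of collagen type I and Lum, lumican, at -0.45 ± 0.52, -0.45 ± 0.31 and -0.53 ± 0.39. Of the 8 macrophage markers that varied in BAT, 7 were higher (median 0.23), with 1 called in each direction. Of 5 endothelial markers 2 were higher (median -0.04), and Kdr, the VEGF receptor 2, was called higher at 0.71 ± 0.18 with no overlap. The part of these cells in the BAT results was not tested. In WAT the macrophage marker Cd68 was at 8.46 to 9.38 in L and 9.21 to 9.82 in H rats, and the mean of the 7 macrophage markers that varied at 10.02 to 10.34 and 10.25 to 10.63; 6 of the 7 were higher in H (median 0.26) and rank products called 2 higher. Of the 7 adipocyte markers in WAT 4 hold a single value, and of the other 3 Adipoq was called lower (-0.13 ± 0.02, no overlap) and Lep higher (0.42 ± 0.38, with overlap). Alb, the only hepatocyte marker that varied in WAT, was called higher (0.56 ± 1.16, with overlap). The part of these cells in the WAT results was not tested.

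Rats on one diet also differed in Scd, and the genes that varied with it were sought after removal of the diet means. With limma, the slope on Scd passed an adjusted p of 0.05 for 0 of 31041 probe sets (0%) in each tissue. The count of 0 in BAT was not stable: it was 15 after array-median centring, 7 with only probe sets above the median level, and 756, 2900 and 462 without H rat 13, 15 or 16. At an unadjusted p of 0.05 there were 1358 in liver (4.37%), 1222 in WAT (3.94%) and 3563 in BAT (11.5%). Much of the within-diet variation of Scd came from the 4 H rats: 66.9% of its sum of squares in liver, 84.6% in WAT and 96.9% in BAT. The relations below rest mainly on these rats.

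Among the 128 pathway genes, exact permutation of rats within diets (69120 orders in liver, 2880 in WAT and BAT, two-sided) gave p below 0.05 for 3 of 128 genes in liver, 4 of the 61 that varied in WAT and 17 of 121 in BAT, or 2.34%, 6.56% and 14.0%. The same test gave p below 0.05 for 4.27% of all varying probe sets in liver, 2.02% in WAT and 4.36% in BAT. No test was made of whether the listed genes differ from the rest in this, and genes on the same arrays are not independent. None of them passed limma's adjustment over all probe sets. The 10 fatty acid synthesis genes that varied in WAT had a median Pearson r with Scd of 0.44, against 0.04 for all varying probe sets, the 13 in BAT 0.44 against 0.12, and the 14 in liver -0.15 against 0.00. Not all ran with Scd: Mid1ip1, a partner of acetyl-CoA carboxylase, had r = -0.80 in WAT (exact p = 0.0347; rho -0.63, exact p = 0.12; limma adjusted p = 1), and -0.53 without rats 13 and 15. In BAT Mcat, of mitochondrial fatty acid synthesis, had r = -0.72 (exact p = 0.12; rho -0.62, exact p = 0.26), and -0.28 without rats 12 and 16. The mean of the 7 adipocyte markers in BAT also varied with Scd within diets, with r of 0.85 and rho of 0.82 over the 9 rats as a description, and its part in the BAT relations below was not tested.

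With each gene read from its probe set of highest mean, Acaca had the highest r of this list in BAT and shared it with Fasn in WAT, where the second Fasn probe set, 1367707_at, had 0.85. In WAT the r of Acaca was 0.81 (exact permutation p = 0.0215) and Spearman's rho 0.83 (exact p = 0.0309) over 9 rats, r without the 2 rats farthest from the median of Scd (13 and 15) was 0.78, and the adjusted p of limma was 1. In BAT its r was 0.94 (exact p = 0.00833) and rho 0.93 (exact p = 0.0396), r without rats 12 and 16 was 0.97, and the adjusted p of limma was 0.15. In liver r was -0.24 (exact p = 0.50) and rho -0.18 (exact p = 0.61) over 13 rats. Rats with more Scd for their diet tended to have more Acaca in both adipose tissues, and not detectably so in liver. Acaca was picked here for its high r, and its exact p is not adjusted over the 61 genes in WAT and 121 in BAT. It did not pass limma's adjustment over all probe sets.

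Me1 had r = 0.90 in BAT (exact p = 0.00972; rho 0.83, exact p = 0.0597; limma adjusted p = 0.29), and 0.72 without the 2 rats. In WAT it had r = 0.67 (exact p = 0.0649; rho 0.68, exact p = 0.0545; limma adjusted p = 1), and 0.95 without the 2 rats. Fasn had r = 0.81 in WAT (exact p = 0.0354; rho 0.63, exact p = 0.14), and 0.85 without them. In BAT Fasn had r = 0.79 (exact p = 0.0389; rho 0.55, exact p = 0.23), which fell to 0.07 without rats 12 and 16, so that this relation rests on those rats. Srebf1 showed no such relation in any tissue, with r of 0.21 in liver, -0.36 in WAT and -0.39 in BAT (exact p = 0.57, 0.49 and 0.70) and rho of 0.09, -0.42 and -0.28 (exact p = 0.80, 0.33 and 0.65).

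In BAT, Dhcr7, the last enzyme of cholesterol synthesis, had r = 0.87 (exact p = 0.0059; rho 0.92, exact p = 0.00764) and 0.74 without the 2 rats. Slc25a1 had r = 0.84 (exact p = 0.0455; rho 0.87, exact p = 0.0313) and 0.83 without them. Against the direction of Scd went Plin3, a lipid droplet coat protein, with r = -0.86 (exact p = 0.0403; rho -0.88, exact p = 0.025). In liver the 3 genes ran against Scd. Nr1i3, the nuclear receptor CAR, had r = -0.76 (exact p = 0.0472; rho -0.77, exact p = 0.012), and -0.67 without rats 12 and 15. Nr1h2, LXR beta, had r = -0.65 (exact p = 0.0157; rho -0.74, exact p = 0.0106), and -0.82 without them. Pnpla2, adipose triglyceride lipase, had r = -0.65 (exact p = 0.0295; rho -0.58, exact p = 0.0693), and -0.49 without them.

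**Figure D3:**
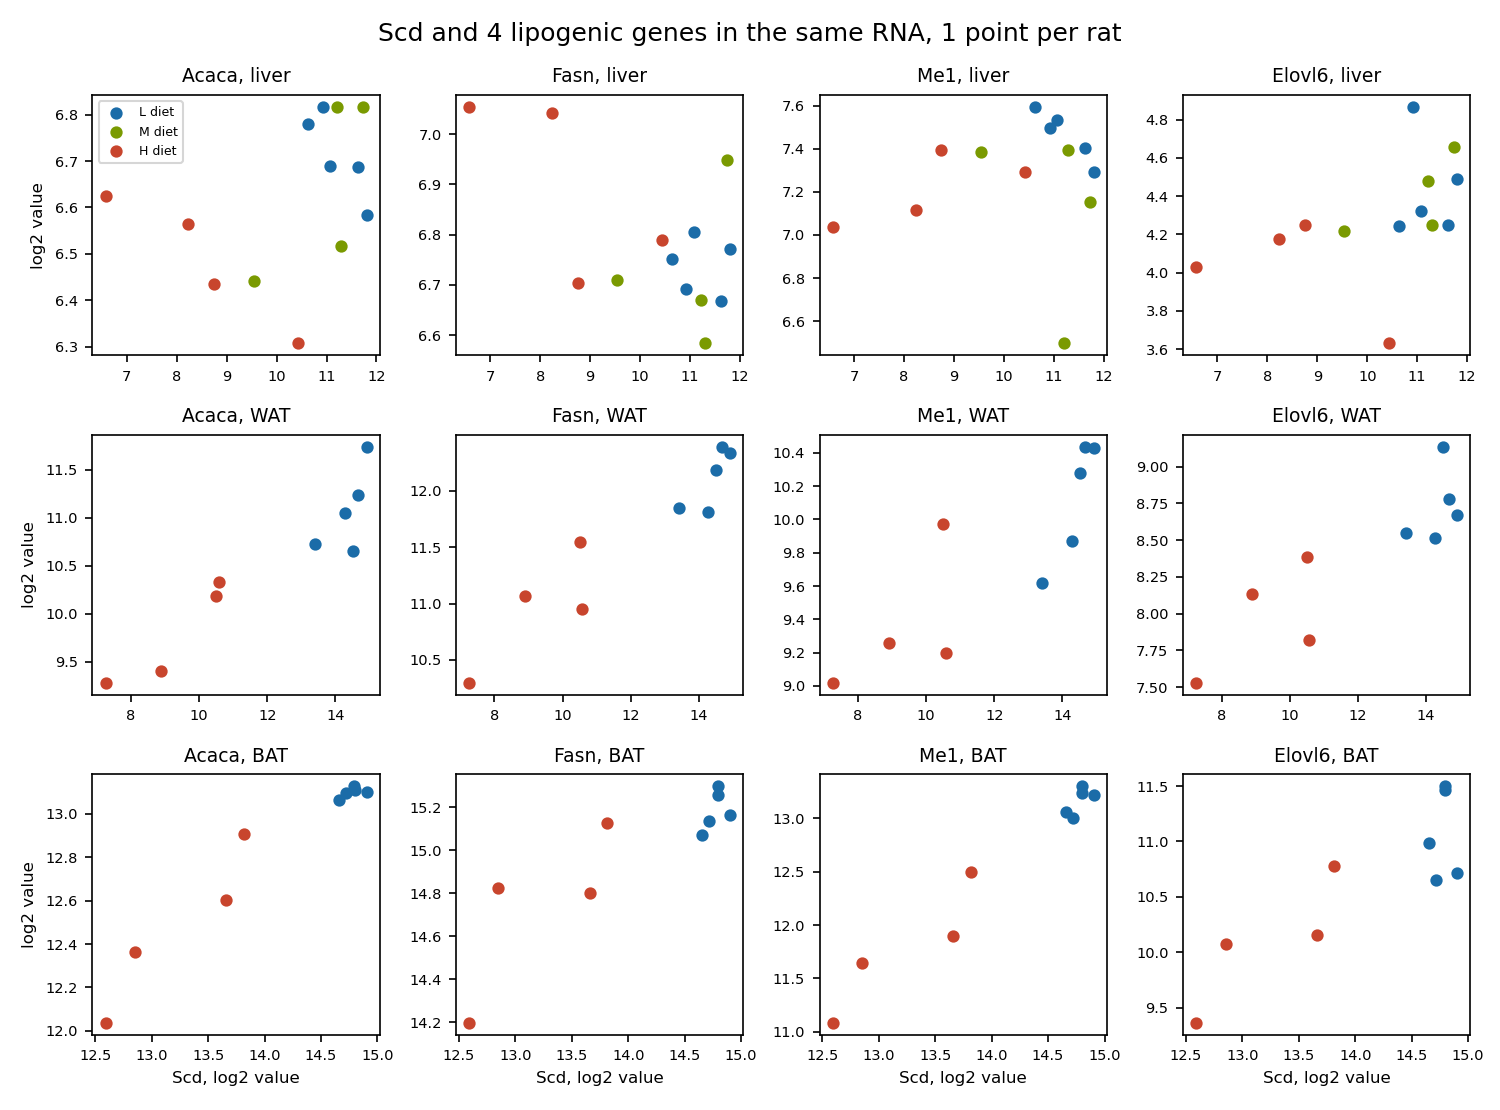
Log2 values of Acaca, Fasn, Me1 and Elovl6 (vertical axes) against Scd (horizontal axes) in liver, WAT and BAT, 1 point per rat, coloured by diet; every panel has its own axes. Over all rats with diet means removed, r of Acaca with Scd was 0.81 in WAT, 0.94 in BAT and -0.24 in liver. Among the H rats alone, Acaca rose with Scd in WAT and BAT and fell as Scd rose in liver.

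Among all named genes with a level above the tissue's median, those most like Scd within diets differed by tissue. They were picked for their r out of 12083 probe sets in liver, 3847 in WAT and 11881 in BAT, so the values are a description over 13 rats in liver and 9 in WAT and BAT, in RNA from the same arrays. In liver the 6 with the highest r were Arglu1 (0.95), Zfp91 (0.95), Slc25a15, the mitochondrial ornithine carrier (0.93), Nectin3 (0.92), Gjc1, a gap junction protein (0.92) and Spag9 (0.89), and the 4 lowest Rbbp9 (-0.91), Dtd1 (-0.89), Med30 (-0.87) and Fam32a (-0.87). None of these belongs to the 7 lists. In WAT they were Psph, an enzyme of serine synthesis (0.92), Fasn by its probe set 1367707_at (0.85), Cisd3 (0.85), Mmadhc (0.83), Eci3 (0.83) and Zdhhc3 (0.82), against Dynlrb2 (-0.90), Gnb1 (-0.86), Ccl11, the chemokine eotaxin (-0.84) and Usp39 (-0.84). In BAT they were Card9, an immune adaptor protein (0.98), Samd11 (0.97), Ccdc9 (0.97), Gpatch1 (0.96), Smim15 (0.96) and Nhlrc3 (0.96), against B3gnt2 (-0.98), Tmod4, a tropomodulin of skeletal muscle (-0.98), Wrap53 (-0.98) and Nsun6 (-0.97). Several of these hardly varied at all: the SD over all arrays was 3.2e-06 log2 units for Usp39 and 0.00017 for Zdhhc3 in WAT, and 0.011 for Ccdc9 in BAT, so that their r says nothing of a likeness to Scd. In BAT the array medians, 2.43 to 2.51, lay close to the lowest value of 2.29, so genes above the median can still be near the floor. There Samd11 averaged 2.72, Ccdc9 2.73, Gpatch1 2.92 and Tmod4 2.60. Of the 100 genes with the highest r in each tissue, 5 were shared by 2 tissues and 0 by all 3: Acaca, Me1 and Pdk1 (pyruvate dehydrogenase kinase 1) by WAT and BAT, and Atrx and Cpsf6 by BAT and liver.

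Scd of the same rat was compared between tissues, with the diet means removed. L rat 4 was the highest L rat in all 3 tissues, and H rat 12 was the highest H rat in liver and BAT and the second in WAT. Rat 15 was the lowest H rat in liver and the highest in WAT, and rat 13 was the lowest in WAT and the second in BAT. Over the 9 rats the relation was r = 0.06 (exact permutation p = 0.92) and rho -0.02 (exact p = 0.99) between liver and WAT, r = 0.53 (exact p = 0.53) and rho 0.38 (exact p = 0.45) between liver and BAT, and r = -0.07 (exact p = 0.97) and rho 0.12 (exact p = 0.72) between WAT and BAT. All 3 Benjamini-Hochberg adjusted p were 0.97, from exact permutation within diets, two-sided. None of these relations could be told from 0 with 9 rats, and without the 2 rats farthest from the median the r were 0.36, -0.27 and 0.82.

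**Figure D4:**
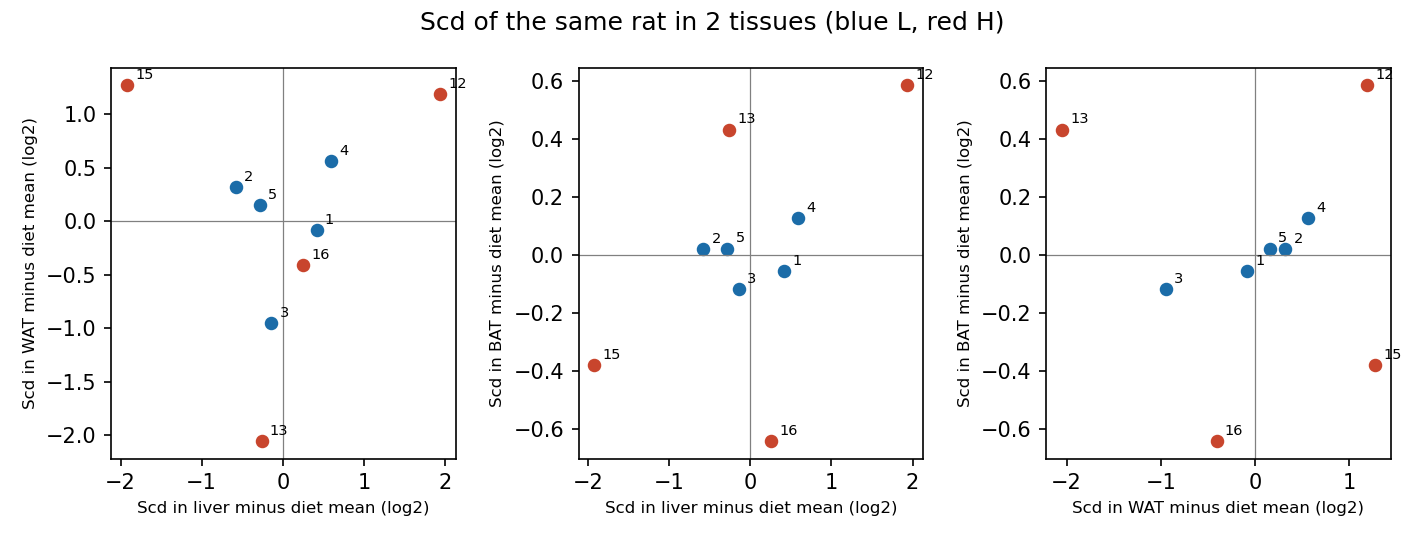
Scd of the same rat in pairs of tissues, each value given as its distance from the diet mean on the log2 scale; numbers are rats, blue L and red H. L rat 4 is above its diet mean in all 3 tissues, while H rats 13 and 15 change sides between tissues (15 at -1.92 in liver and 1.27 in WAT).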

How the data were processed

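RNA of 31 samples had been hybridised to 1-colour Affymetrix rat arrays. The authors deposited log2 values that they had summarised by RMA in liver, qFARMS in WAT and GCRMA in BAT, each tissue alone; the submitters' processing notes name RMA and GCRMA. No scan batch is given in the sources used here, and the number of arrays limits the precision. From these values, 57 control probe sets were left out, and probe sets were named by the platform annotation, updated to RefSeq: 20826 had 1 gene symbol, 436 several and 9780 none. A gene was read from its probe set of highest mean in the tissue. Diet differences and slopes on Scd (with a diet term) were fitted with limma 3.58.1 in R 4.3.3 across all probe sets of a tissue, with Benjamini-Hochberg adjustment and a threshold of 0.05. Rank products used 100 permutations. Both were tested on simulated data, rank products in liver only. For H against L, limma found 63 of 67 liver probe sets changed by 1 log2 unit, 58 of 67 in WAT and 53 of 67 in BAT. At 0.5 log2 units it found 54 of 67 in liver, 37 of 67 in WAT and 44 of 67 in BAT. The WAT and BAT simulations held only 5243 and 20661 varying probe sets. The changed probe sets were drawn at random, and in WAT and BAT some that could be drawn hardly vary at all. The counts found thus do not give the power for a pathway gene with more spread between rats. For slopes on Scd in BAT (20661 probe sets) limma found only 20 of 67, 24 of 67 and 43 of 66 at slopes of 0.25, 0.5 and 1. The members and lists were chosen with earlier results of these data known. Named genes were, for each list and tissue, those past the threshold or the 3 with the smallest p, and for likeness to Scd the 6 highest and 4 lowest r; genes named for their rank products calls, and those given rat by rat, were chosen after their values were seen. The same rat numbers mark the same animals in the 3 tissues, and deviations of a rat correlated best with its own in 9, 8 and 9 of 9 rats. Alternatives are described in the closing section.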

Additional observations from a re-analysis of the deposited data

Results flagged for a closer look

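Among 68 groups of 4 or 5 rats, those of Scd and of the genes given rat by rat, 3 held a rat far from the others of its diet, and chance alone gives about 1 in 20. In BAT, H rat 12 was at 12.77 for Acly, ATP citrate lyase, against a mean of 12.23 in the other H rats, and at 6.17 for Fads1, against 5.42. It is also the H rat with the highest Scd in BAT. In liver, H rat 16 was at 7.13 for Insig1, against a mean of 8.16 in the other H rats. No group of Scd values held such a rat.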

How the results depend on the processing

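The Scd differences between H and L kept their sign under array-median centring, quantile normalization, medians in place of means and the loss of any 1 rat, and no setting moved them by more than the spread between rats. Without 1 rat they ranged from -3.36 to -2.07 in liver, -5.47 to -4.36 in WAT and -1.74 to -1.33 in BAT. H minus M ranged from -3.09 to -1.81. M minus L ranged from -0.53 to 0.20, turning positive without M rat 6 and, at 0.18, by medians, so it has no settled sign. A second Scd probe set could not be tried, since there is 1. For the tissue contrasts, rats as a replicate block (paired tissues) left the values at 2.33, -1.17 and -3.50 (liver minus WAT, liver minus BAT, WAT minus BAT) with SE of 1.02, 0.64 and 0.81, and leaving out 1 rat gave 1.74 to 3.40, -1.62 to -0.65 and -4.05 to -2.67.

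Pathway calls depended on the method: 0 by limma and 18, 5, 11, 17 and 32 by rank products (H against L, M against L and H against M in liver, then WAT and BAT), and 26 in BAT without rats 13 and 15, a setting chosen after seeing the data. Leaving out 1 rat gave 0 to 1 limma calls for H against L and for H against M in liver (Sqle without H rat 16, adjusted p = 0.0417 and 0.029), 0 for M against L, 0 in BAT, and 0 to 1 in WAT, where Degs2 without L rat 1 and Nr0b2 without H rat 12 hold a single value.

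The count of probe sets covarying with Scd stayed at 0 in liver and WAT under all settings run. In BAT it was 14 with no diet term, 7 above the median level, 15 after array-median centring, 9 among varying probe sets and 3633 without rats 13 and 15 (the last 2 chosen after seeing the data). Leaving out 1 rat gave 0 to 2900, with 1 without L rat 4, 756 without H rat 13, 2900 without 15 and 462 without 16; the cause was not tested. Between-tissue r of Scd was 0.77, 0.87 and 0.84 (liver and WAT, liver and BAT, WAT and BAT) with diet means kept, where the diet gap itself sets the value. The rank correlation was -0.0167 for liver and WAT and 0.12 for WAT and BAT, and without the 2 farthest rats r was 0.36, -0.27 and 0.82.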
